A study of Mus musculus with 88 samples.

Results

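Members of a gene set defined by strain were described here: genes expressed in the bed nucleus of the stria terminalis (BNST) of DBA/2Crl (D2) mice and low in that of C57BL/6Crl (B6) mice. CPM (the counts of a gene divided by all counts of its library and multiplied by 1000000) were averaged over the 13 D2 and the 15 B6 BNST libraries. A gene was a member where the D2 mean was at least 1 CPM and at least 4 times the B6 mean after 0.05 was added to both, with a list of gene families and of 4 single genes left out by symbol. The rule found 101 members among 48795 genes, and a further 4 genes met the values and were left out by their symbols. The mirrored rule, with the strains exchanged, found 73 genes. Because the BNST values of both strains chose the members, the BNST strain difference is a description and was not tested.

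The series holds 88 RNA-seq libraries from the medial prefrontal cortex (mPFC), BNST and ventral hippocampus (vHPC) of male mice aged 8 weeks from these inbred strains. Defeated mice had been through chronic social defeat stress (CSDS), in which a mouse meets an aggressive CD1 male each day, and were called susceptible or resilient from their social avoidance against undefeated controls of the same strain. Tissue was taken 6 to 8 days after CSDS, no label names a transgene, and for 7 mice there were libraries of mPFC as well as vHPC. The BNST had 5 control, 5 resilient and 5 susceptible B6 libraries and 5 control, 3 resilient and 5 susceptible D2 libraries. The mPFC had 6 libraries of each B6 group, 6 of D2 controls and 8 of D2 susceptible mice, and the vHPC had 6 B6 control, 8 B6 resilient, 3 B6 susceptible, 6 D2 control and 5 D2 susceptible libraries. In bulk tissue, fewer cells of a type and less RNA per cell cannot be told apart.

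BNST libraries held 11825757 to 25793910 counts. The summed CPM of 6 markers of forebrain GABA neurons, which make up most of the BNST, was 808 to 1454 in B6 and 1258 to 1653 in D2. The mitochondrial share of counts had a median of 21.5% in B6 and 11.9% in D2, and the median log2 ratio of D2 to B6 over all expressed genes was 0.23 by CPM and 0.02 by TMM library sizes, with which 79 of the 101 members still met the rule. One D2 library stood apart. Each gene of the rule was scored for the side of the midpoint between the strains' mean log2 levels on which a library fell. D2 control 2 was on the D2 side for 69 of the 101 members, against 93 to 100 in the other D2 libraries and 3 to 13 in the B6 libraries, while for the mirrored genes the D2 libraries, D2 control 2 included, were on the B6 side for 1 to 7 of 73. It was the lowest D2 library for 47 members and the highest for 10, its median level was 45.6% of the other D2 mean, and its mitochondrial share was 30.8%. Without D2 control 2 the rule found 101 genes, of which 97 were among the 101.

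Inbred strains are each fixed for 1 version of nearly every gene, so a gene expressed in 1 strain and not in another can differ in its promoter, its splicing, its number of copies or its very presence. The mouse reference genome comes from a C57BL/6 substrain, and reads of both strains were aligned to it. Many of the members are processed pseudogenes, which are copies of an mRNA written back into the genome without introns and which keep much of the sequence of the parent gene.

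The sequences below show what kinds of items the set holds. Rprl3, the member with the largest ratio, is annotated as an RNase P RNA-like gene at chr8:3803069-3803358 on the minus strand, and Rpph1, the RNA of the RNase P enzyme that trims the 5′ end of tRNA precursors, lies at chr14:50807449-50807767 on the minus strand and belongs to the mirrored set. Of 279 aligned bases 246 were identical (88.2%). Both are GENCODE M21 transcripts (GRCm38), shown 5′ to 3′ to let the likeness be seen, with the bases that differ between them in capitals. Rpph1 has 319 bases, of which the first 300 are given (chr14:50807468-50807767).
Rprl3: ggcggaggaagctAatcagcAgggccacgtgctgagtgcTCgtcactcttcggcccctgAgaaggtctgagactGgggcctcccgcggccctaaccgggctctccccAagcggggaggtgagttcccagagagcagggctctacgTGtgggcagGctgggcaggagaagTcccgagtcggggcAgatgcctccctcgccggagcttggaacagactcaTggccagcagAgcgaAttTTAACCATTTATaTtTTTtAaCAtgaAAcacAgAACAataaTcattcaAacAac
Rpph1: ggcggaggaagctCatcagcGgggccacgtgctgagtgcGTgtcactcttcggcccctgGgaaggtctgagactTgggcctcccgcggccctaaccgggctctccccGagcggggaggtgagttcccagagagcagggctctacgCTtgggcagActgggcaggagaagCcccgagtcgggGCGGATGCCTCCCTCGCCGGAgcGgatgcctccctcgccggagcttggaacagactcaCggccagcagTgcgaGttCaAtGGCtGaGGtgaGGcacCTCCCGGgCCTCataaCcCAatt

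Gm13394, the pseudogene with the highest D2 mean, lies at chr2:28933610-28934609 on the minus strand inside the gene Cfap77. Its 1000 bases matched the transcript of Gapdh, the glycolytic enzyme glyceraldehyde-3-phosphate dehydrogenase, with 1 mismatch, and 89.4% of its 96-base windows, the read length in the BNST and mPFC, were found unchanged in Gapdh. Gm9347 is a processed pseudogene of Phgdh, the first enzyme of serine synthesis, at chr7:136810909-136812515 on the plus strand. Of its windows, 11.4% were found unchanged in transcripts of other loci that aligned to it. One stretch of 96 bases is shown for each (chr2:28934217-28934312 and chr7:136811281-136811376, GRCm38, strand of the pseudogene), with the bases that differ from the parent transcript in capitals.
Gm13394: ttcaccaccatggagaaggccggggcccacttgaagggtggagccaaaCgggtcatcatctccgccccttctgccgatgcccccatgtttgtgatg
Gm9347: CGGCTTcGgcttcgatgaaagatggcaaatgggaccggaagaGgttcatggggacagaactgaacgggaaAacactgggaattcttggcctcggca

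Stab2 and Tuba1c are protein-coding members whose RefSeq promoter windows (250 bases before to 50 after the start, GRCm38.p6) are shown as examples. Neither overlapped between the strains in the BNST, and Stab2 but not Tuba1c was among the members with the largest ratios. The windows are chr10:87007893-87008192 (minus strand) and chr15:99029641-99029940 (plus strand), and the motifs TATAAA and CCAAT, searched on both strands, are in capitals.
Stab2: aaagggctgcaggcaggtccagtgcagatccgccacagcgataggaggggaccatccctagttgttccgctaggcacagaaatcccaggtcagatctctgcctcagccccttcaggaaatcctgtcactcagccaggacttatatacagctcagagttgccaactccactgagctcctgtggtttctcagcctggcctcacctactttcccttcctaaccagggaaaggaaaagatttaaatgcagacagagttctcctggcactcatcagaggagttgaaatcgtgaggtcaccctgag
Tuba1c: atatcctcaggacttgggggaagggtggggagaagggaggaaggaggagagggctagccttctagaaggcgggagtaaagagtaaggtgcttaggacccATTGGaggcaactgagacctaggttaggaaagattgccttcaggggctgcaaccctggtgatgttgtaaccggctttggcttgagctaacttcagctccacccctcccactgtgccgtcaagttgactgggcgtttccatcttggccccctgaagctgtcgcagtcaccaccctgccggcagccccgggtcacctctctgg
The Stab2 window held neither motif, and the Tuba1c window held CCAAT on the minus strand. Over the 38 promoter windows of 36 members in the table, TATAAA was in 2 (5.26%) and CCAAT in 14 (36.8%), beside 13.6% and 37.4% of all 32851 windows.

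Mir1931 is the one microRNA gene of the set. Its mature form (RefSeq, chr10:93162879-93162900, plus strand, GRCm38.p6) is shown with its seed, bases 2 to 8, in capitals. The libraries count fragments over the annotated hairpin and do not measure the mature form.
mmu-miR-1931: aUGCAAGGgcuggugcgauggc

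Across the BNST the members ran from 1.01 to 107.6 CPM in D2, with a median of 2.61, and the B6 median was 0.268. The median ratio was 7.07 and the range 4.01 to 164.8. A total of 19 members reached 10 CPM in D2, 56 were under 3 CPM, and 67 were under 0.5 CPM in B6. In 58 members every D2 library was above every B6 library, beside 0.527% of the 16896 genes with a mean of at least 1 CPM in a strain. That separation follows from the rule for most of these genes and is given without a test. Without D2 control 2 the strains did not overlap in 69 members. Nearest to the ratio of 4 inside the set were Gm17936 (4.01), Gm10704 (4.09) and Eif5al3-ps (4.14), and outside it were Gm38211 (3.997), Ccr6 (3.9) and 1700057H15Rik (3.889). Nearest to a D2 mean of 1 CPM inside were Gm4735 (1.01), Gm16092 (1.02) and Eif5al3-ps (1.04), and outside were Sycp3 (0.993), Gm13920 (0.96) and Gm10093 (0.957).

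**Figure D1:**
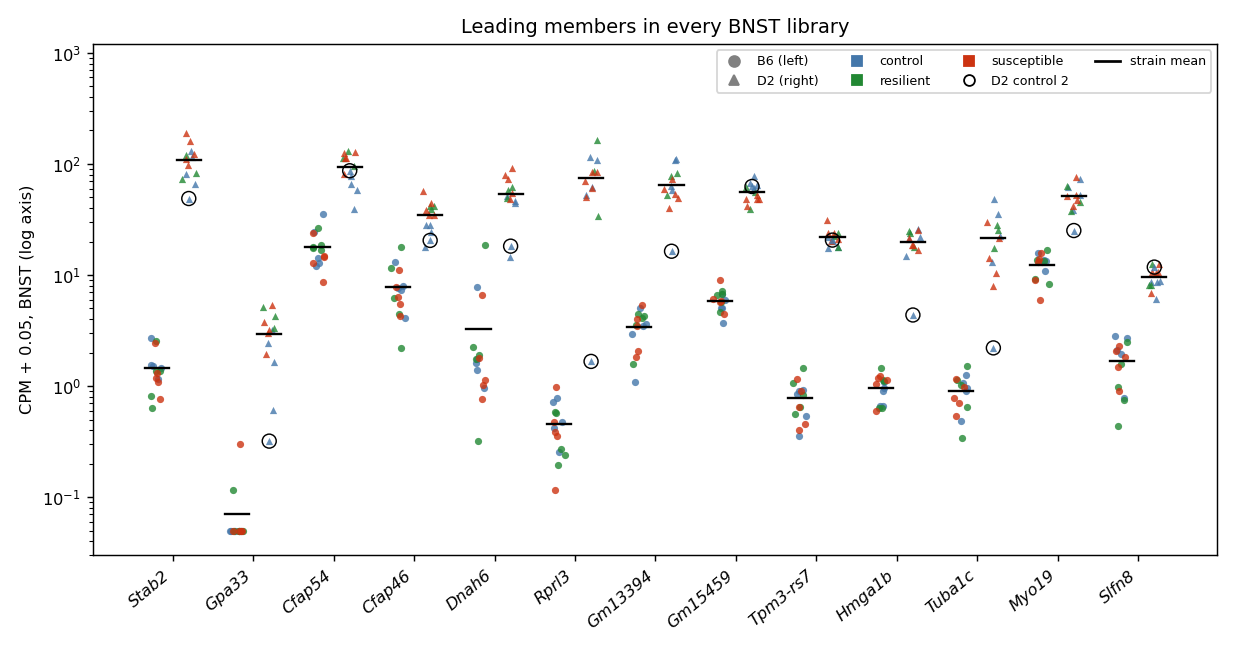
CPM of the leading members in each BNST library, on a log axis with 0.05 added, for B6 (15 libraries) and D2 (13 libraries), with control, resilient and susceptible mice in separate colours and D2 control 2 circled. The strains separate for most of these genes, while the B6 libraries of Dnah6 reach up to 18.4 CPM and D2 control 2 is the lowest D2 library of Rprl3 and Tuba1c.

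Stab2, a scavenger receptor that clears hyaluronan and is known from the sinusoidal endothelium of liver and spleen, had the highest D2 mean of the set. It was at 107.6 ± 39.1 CPM in D2 (SD, n = 13; lowest 48.7, median 111.4, highest 189) and 1.41 ± 0.64 CPM in B6 (n = 15; 0.59, 1.31, 2.66). Every D2 library was far above every B6 library, D2 control 2 included. The summed CPM of 5 general endothelial markers was 142 to 258 in B6 and 161 to 298 in D2. The part of endothelial content in the Stab2 levels was not tested. Gpa33, a surface antigen known from the intestinal epithelium, had 2.89 ± 1.55 CPM in D2 (0.27, 3.118, 5.28) and 0.02 ± 0.07 CPM in B6 (0.00, 0.00, 0.25), and did not overlap between the strains.

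A group of members encodes parts of the axoneme, the microtubule core of motile cilia. Cfap54, a protein of the central pair apparatus, had 94.3 ± 28.9 CPM in D2 (39.2, 96.5, 130) and 17.97 ± 6.87 CPM in B6 (8.68, 16.8, 35.2). Cfap46, another central apparatus protein, had 34.7 ± 10.89 CPM in D2 (17.6, 34.6, 57.3) and 7.77 ± 4.08 CPM in B6 (2.15, 7.30, 17.9). Cfap54 did not overlap between the strains, whereas the highest B6 library of Cfap46 lay just above the lowest D2 library. Dnah6, an axonemal dynein heavy chain, had 53.2 ± 21.6 CPM in D2 (14.5, 51.1, 91.7) and 3.25 ± 4.68 CPM in B6 (0.27, 1.68, 18.4). B6 resilient 5 was alone in B6 in reaching the D2 range of Dnah6, and B6 control 1 (7.67) and B6 susceptible 2 (6.60) were also above the rest. Summed over 5 ependymal markers, the cells of the brain that carry motile cilia, CPM was 9.52 to 50.4 in B6 and 2.43 to 31.2 in D2, with the median higher in B6 (14.2) than in D2 (11.1).

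The RNase P RNA family moved as a group of related genes with opposite signs. Rprl3 had 74.8 ± 40.5 CPM in D2 (1.62, 69.6, 165) and 0.40 ± 0.24 CPM in B6 (0.07, 0.37, 0.93). Rprl2, at chr3:22251374-22251663 and identical to Rprl3 in 267 of 290 bases, had 4.49 ± 2.35 CPM in D2 (0.07, 4.25, 9.77) and 0.09 ± 0.08 CPM in B6 (0.00, 0.11, 0.27). D2 control 2 held 1.62 CPM of Rprl3 and 0.07 CPM of Rprl2, and the other D2 libraries had at least 33.65 and 2.875 CPM. Rpph1, the functional RNA, went the other way, with 407 ± 238 CPM in B6 (155, 359, 1135) and 86.7 ± 36.7 CPM in D2 (9.503, 81.2, 152). D2 control 2 was the lowest D2 library for Rpph1 too. The sum of the family, Rprl1 included, was 407 ± 238 CPM in B6 and 166 ± 72.9 CPM in D2, or 179 ± 58.6 CPM without D2 control 2, so that Rprl3 and Rprl2 in D2 amounted to less than the shortfall of Rpph1. How reads were divided among these related genes was not tested.

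**Figure D2:**
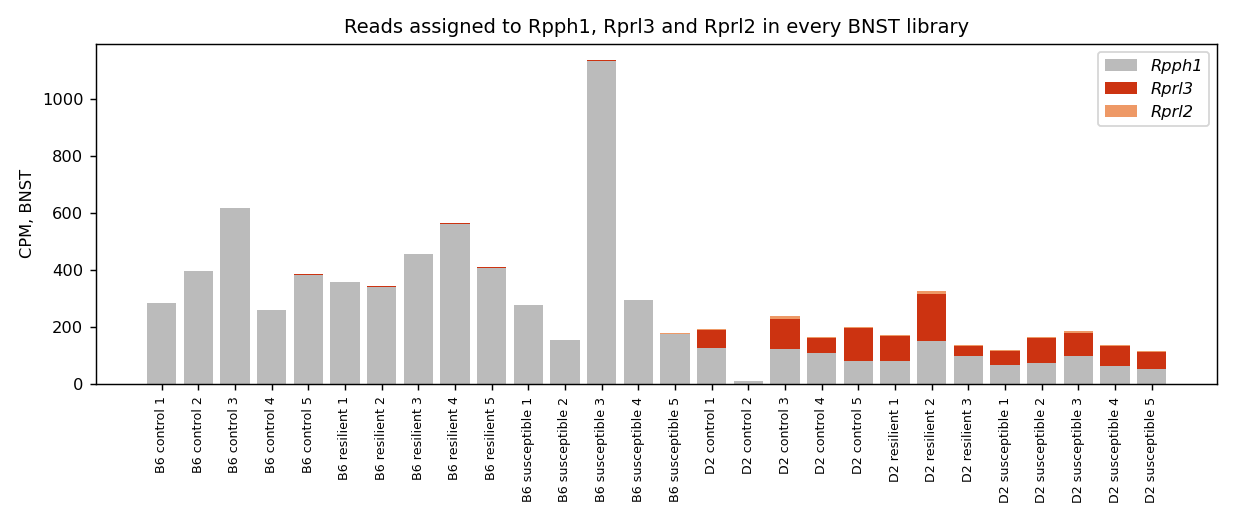
Stacked CPM of Rpph1, Rprl3 and Rprl2 in each of the 28 BNST libraries. The B6 bars are almost wholly Rpph1, with a median of 359 CPM, the D2 bars are shorter and hold Rprl3 as well, and D2 control 2 has almost none of the 3.

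Cytoskeletal and muscle-type genes are given next, together with a collagen gene. Myo19, a mitochondrial myosin, had 51.3 ± 14.5 CPM in D2 (25.1, 51.6, 76.5) and 12.3 ± 3.07 CPM in B6 (5.93, 13.3, 16.8). Tuba1c, an alpha-tubulin, had 21.3 ± 12.5 CPM in D2 (2.16, 21.6, 48.7) and 0.85 ± 0.32 CPM in B6 (0.29, 0.92, 1.47). Myo19 and Tuba1c did not overlap between the strains. Myh6, the alpha heavy chain of cardiac myosin, had 2.295 ± 1.15 CPM in D2 (0.27, 2.54, 4.153) and 0.08 ± 0.12 CPM in B6 (0.00, 0.06, 0.47). Col5a2, a fibrillar collagen chain, had 18.2 ± 6.92 CPM in D2 (5.66, 19.1, 27.9) and 3.05 ± 1.10 CPM in B6 (1.28, 3.13, 6.04). Of the 13 D2 libraries, 11 were above every B6 library for Myh6 and 12 for Col5a2. In a list of 116 expressed myosin, kinesin, dynein, actin and tubulin genes, 4 were members (Dnah6, Myo19, Tuba1c and Myh6; 3.45%).

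Some members are immune genes. Slfn8, Slfn9 and Slfn10-ps belong to the Schlafen family, which interferon induces. Slfn8 had 9.47 ± 2.07 CPM in D2 (6.09, 8.69, 12.6) and 1.63 ± 0.76 CPM in B6 (0.39, 1.77, 2.77), Slfn9 had 3.04 ± 0.86 and 0.59 ± 0.44 CPM, and Slfn10-ps had 1.36 ± 0.64 and 0.28 ± 0.26 CPM. Only Slfn8 of these 3 did not overlap between the strains. They were the 3 members among 41 expressed genes of interferon-inducible families (7.32%), where members were 0.598% of all expressed genes. Siglecf, a sialic acid receptor known from eosinophils and the 1 member of 86 immune receptors and lectins (1.16%), had 1.67 ± 1.04 CPM in D2 (0.59, 1.187, 3.504) and 0.27 ± 0.19 CPM in B6 (0.00, 0.20, 0.71). Ccl6, a chemokine of myeloid cells, had 4.504 ± 1.129 CPM in D2 (3.38, 4.188, 6.56) and 0.99 ± 0.54 CPM in B6 (0.05, 0.95, 2.27). Ccl6 did not overlap between the strains and Siglecf did. Fpr2, a formyl peptide receptor, had 1.24 ± 0.47 and 0.16 ± 0.14 CPM. The summed CPM of 6 microglial markers was 155 to 277 in B6 and 133 to 300 in D2.

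Enzymes and lipid proteins followed. Prss41, a membrane-anchored serine protease known from the testis, had 5.82 ± 1.53 CPM in D2 (2.70, 6.00, 8.87) and 0.84 ± 0.39 CPM in B6 (0.19, 0.89, 1.67), without overlap. Its neighbour Prss32 had 1.47 ± 0.72 and 0.18 ± 0.13 CPM. Fmo2, a flavin monooxygenase of drug metabolism, had 7.11 ± 3.87 CPM in D2 (1.71, 6.87, 14.3) and 1.23 ± 0.77 CPM in B6 (0.05, 1.15, 2.71). Scd4, a stearoyl-CoA desaturase, had 1.55 ± 0.59 and 0.29 ± 0.25 CPM. For Fmo2 12 and for Scd4 11 of the 13 D2 libraries were above every B6 library. Plin4, a lipid droplet protein, had 7.95 ± 9.19 CPM in D2 (1.35, 3.25, 28.5) and 1.51 ± 0.96 CPM in B6 (0.33, 1.28, 3.92), and its D2 mean rested on D2 resilient 1 (25.4) and D2 resilient 2 (28.5). Serpina1b, a protease inhibitor made in the liver, had 1.27 ± 0.45 CPM in D2 and at most 0.07 CPM in any B6 library.

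Among genes of neuronal signalling, the list of receptors and ion channels held members at about the share of all expressed genes (0.598%). Sstr5, a somatostatin receptor, had 4.83 ± 2.235 CPM in D2 (1.15, 4.4, 9.22) and 0.58 ± 0.39 CPM in B6 (0.00, 0.59, 1.26), and was the 1 member of 209 expressed receptor and ion channel genes (0.478%). In the list of 23 expressed neuropeptides and hormones Oxt was the 1 member (4.35%), and it entered the set through 1 library. D2 control 2 was the only D2 library of Sstr5 within the B6 range. Tsix, the antisense RNA of the X-inactivation gene Xist, had 7.48 ± 3.82 CPM in D2 (1.66, 7.76, 12.9) and 1.29 ± 0.66 CPM in B6 (0.44, 1.15, 3.06). The counting is not stated to use strand, so reads of Tsix and of the overlapping Xist cannot be told apart. Mir1931, inside Cdk17 on the same strand, had 4.52 ± 2.04 CPM in D2 (2.09, 4.125, 8.96) and 0.66 ± 0.53 CPM in B6 (0.07, 0.51, 1.695). None of the listed zinc finger, chemosensory receptor, solute carrier and ubiquitin pathway genes was a member.

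Some members entered the set through 1 library. Wnt9b, a secreted Wnt ligand, had 80.2% of its summed D2 CPM in D2 control 5 (27.5 CPM), and its D2 median was 0.08. Atp2a1, the calcium pump of fast muscle, had 68.4% and Tspan11, a tetraspanin, 43.8% in the same library. The summed CPM of 6 thalamic neuron markers in D2 control 5 was 1975, against a D2 median of 281 and a B6 maximum of 448. Oxt, the hypothalamic peptide oxytocin, had 62.4% of its D2 sum in D2 susceptible 2 (31.8 CPM) and a D2 median of 0.69 against a B6 median of 0.74, and Pgr15l had 48.7% in that library. The 6 hypothalamic markers summed to 36.3 CPM there with 1 of the 6 at 0, to 35.4 CPM in D2 resilient 1, and to at most 11.1 CPM in B6. With the library in question left out, Wnt9b, Atp2a1, Tspan11, Oxt and Pgr15l left the set. They were among 13 members lost when a library was left out, and 88 were kept whichever library was left out.

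By annotation, 42 members were protein coding (41.6%), 41 were pseudogenes (40.6%), of which 34 were processed (33.7%), 17 were noncoding RNAs or other types (16.8%), and 1 had no GENCODE M21 entry. Among all 16896 expressed genes 81.5% were protein coding, 3.07% pseudogenes and 2.33% processed pseudogenes. The mirrored set held 38 protein-coding genes, 29 noncoding RNAs or other types and 6 pseudogenes (8.22%). A close copy was counted where at least 50% of the longest transcript of a gene aligned at 95% identity or more to a transcript of another locus. Such a copy was found for 49 of 100 members (49%), 8 of 73 mirrored genes (11%) and 565 of 16713 other expressed genes (3.38%). By type, it was found for 33 of 34 processed pseudogenes among the members, beside 188 of 360 among the other genes (52.2%), and for 10 of 42 protein-coding members (23.8%), beside 292 of 13703. The copy was protein coding in 43 of the 49. Reads from such pairs are uncertain. Over the 49, a median of 47.8% of a member's 96-base windows were found unchanged in transcripts of other loci that aligned to it.

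The levels of the copies were set beside those of the members. In 35 pairs the copy was at 10 CPM or more in D2. The member held a median of 9.58% of the CPM of the pair in D2, and up to 61.5%, and 0.89% in B6. The copy was lower in D2 by its mean in 23 of the 35 pairs, and the sum of the pair was within 0.5 of equal on the log2 scale in 26, with a median difference of 0.011. Gapdh had 203 ± 59.2 CPM in D2 and 316 ± 46.8 CPM in B6, while Gm13394 had 65.1 ± 25.8 and 3.35 ± 1.27 CPM, so that the sums were 268 and 319 CPM. Hspa8, a constitutive heat shock protein, had 272 ± 40.6 CPM in D2 and 431 ± 52.9 CPM in B6 beside 56.2 ± 11.1 and 5.83 ± 1.28 CPM of its pseudogene Gm15459. In these pairs the copy was lower by more than the member was higher.

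Other pairs summed to nearly the same level. Tpm3, a tropomyosin, had 29.5 ± 4.69 CPM in D2 and 48.3 ± 8.44 CPM in B6, and its retrocopy Tpm3-rs7 had 21.7 ± 3.59 and 0.73 ± 0.31 CPM, which gave sums of 51.2 and 49.0 CPM. Hmga1, an architectural chromatin protein, had 12.3 ± 5.39 CPM in D2 and 26.0 ± 4.28 CPM in B6, and Hmga1b had 19.6 ± 5.804 and 0.91 ± 0.27 CPM. Hmga1b was thus at 61.5% of the pair in D2 and 3.39% in B6. Rps18, a ribosomal protein, had 18.8 ± 7.77 and 25.6 ± 3.71 CPM, and Gm10260 had 10.66 ± 5.11 and 0.08 ± 0.07 CPM. The sum went up in D2 for a few: Gm15446 and Zfp932, a zinc finger gene, summed to 37.8 CPM in D2 and 13.3 CPM in B6.

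**Figure D3:**
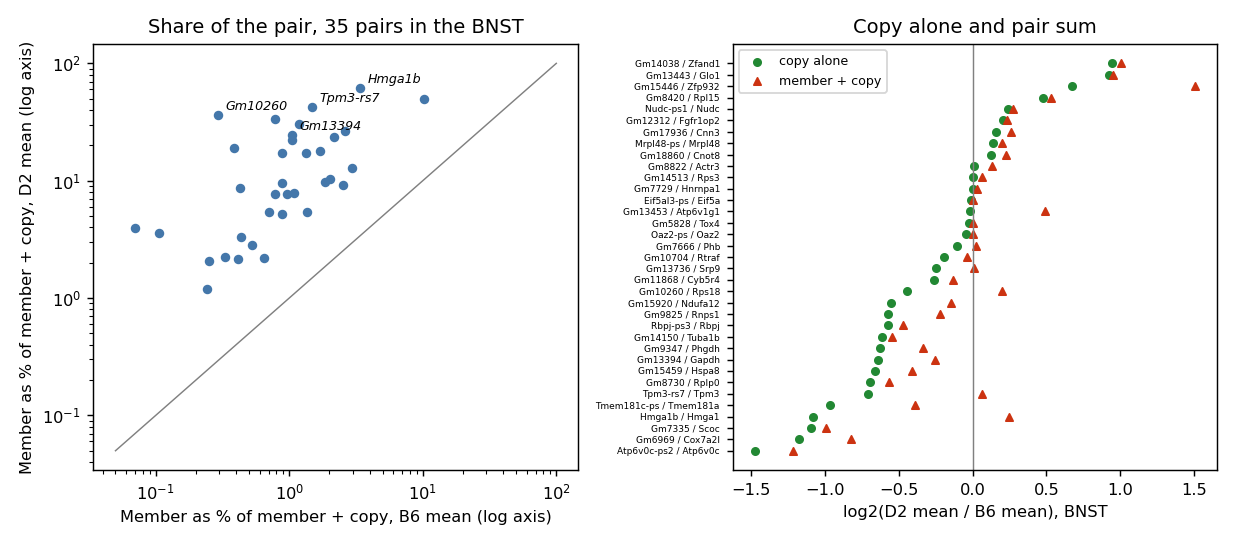
Left, the percentage of the CPM of a pair that the member holds in D2 (vertical) and B6 (horizontal), both on log axes, for 35 members whose closest copy is at 10 CPM or more in D2, with the line of equality. Right, the log2 ratio of the D2 to the B6 mean for the copy alone (circles) and for the sum of the pair (triangles). Members hold a median of 9.58% in D2 and 0.89% in B6, and 26 of 35 sums lie within 0.5 of equal on the log2 scale.

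Members were spread over the genome, with 12 each on chromosomes 17 and 2, 11 on chromosome 11 and 10 on chromosome 1, and none on chromosome 16. Chromosome 17 held 11.9% of the members and 4.37% of the expressed genes, and chromosome 2 held 11.9% and 7.5%. Neighbours under 500 kb apart made up 6 clusters with 14 members. Slfn9, Slfn8 and Slfn10-ps lay together at chr11:82978390-83040042. Msh5, a meiotic mismatch repair protein at 2.05 ± 0.78 CPM in D2 and 0.42 ± 0.26 CPM in B6, lay with the pseudogenes Gm18733 and Gm18734 at chr17:35028605-35306317. Prss41 and Prss32 overlapped on opposite strands at chr17:23836785-23859779. The other clusters paired Cfap54 with Mir1931, Arhgap27os3 with Wnt9b, and AI847159 with Gm14029. A total of 49 members overlapped another annotated gene, 35 of them a gene on the opposite strand, and their counts are uncertain for that reason.

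The mPFC and vHPC libraries came from mice the rule did not use. The question was whether the strain difference of the BNST was also present there. The table of the mPFC held 76 of the members and that of the vHPC held 73, with 68 in both and 20 in neither, since the authors had filtered out genes that did not reach 1 CPM in 6 or more samples. A gene near 0 in B6 could pass only through D2, so counts are also given for members that 6 or more B6 libraries held at 1 CPM or more. These levels are the deposited values, after the adjustment for library sets, and not the CPM that the authors filtered. The split is therefore approximate, and does not show which libraries carried a gene through the authors' filter. In the mPFC, limma called 65 of the 76 higher in D2 controls and 2 lower, beside 13.4% and 14.4% of all 18946 genes. Of the 47 that B6 carried through the filter, 38 were called higher and 2 lower, with a median log2 difference of 0.69. Between susceptible mice of the strains, 66 were called higher and 1 lower (7.81% and 9.7% of all genes), and 39 and 1 of the 47. In the vHPC, 69 of the 73 were called higher in D2 controls and 2 lower (30.2% and 29.1% of all 19559 genes), and 45 and 2 of the 49 that B6 carried through, with a median of 1.139. The vHPC controls of B6 were prepared in library sets 5, 6 and 9 and those of D2 in sets 3, 7, 8 and 10. No set held controls of both strains, so these counts do not separate strain from library set. Between susceptible mice, 66 were called higher and 1 lower (16.5% and 16.1%), and 42 and 1 of the 49. Of those that B6 carried through, 27 of 32 with a close copy and 11 of 15 without were called higher in the mPFC, and 32 of 34 and 13 of 15 in the vHPC. Of the mirrored genes, including any that passed the filter only through B6, 62 of 64 in the mPFC and 58 of 61 in the vHPC were called lower in D2.

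Stab2 had log2 CPM of -1.03 to 0.15 in the 6 mPFC controls of B6 (median -0.53) and 5.74 to 7.25 in those of D2 (median 6.54). Only 5 B6 libraries of the mPFC held it at 1 CPM, so that it passed the filter there with the help of D2 and its test is not given. In the vHPC its controls were at -0.74 to -0.05 in B6 and 6.58 to 7.51 in D2, a difference of 7.50 ± 0.19 (SE; adjusted p = 6.09e-21). No B6 control reached 1 CPM there, and the B6 libraries that did were all of defeated mice. The strains were far apart in both regions. Rprl3 was at -3.27 to -0.69 in B6 and 6.19 to 7.13 in D2 in the mPFC controls, and at -6.09 to -3.95 and 5.93 to 7.98 in the vHPC controls. It reached 1 CPM in 2 B6 libraries of the mPFC and 0 of the vHPC, so that it was in both tables through D2 and these levels are given without a test. Cfap54 differed by 1.92 ± 0.07 and 2.66 ± 0.07, Cfap46 by 1.04 ± 0.09 and 1.33 ± 0.09, and Dnah6 by 3.62 ± 0.21 and 1.97 ± 0.24, and all 3 axonemal genes were called higher in D2 in both regions. Slfn8 differed by 1.7 ± 0.13 and 2.1 ± 0.16. With the library set as a covariate the vHPC calls were lost for Dnah6 (2.21, adjusted p = 0.128) and Slfn8 (1.81, adjusted p = 0.0643). Slfn9 differed by 0.69 ± 0.16 in the mPFC. Of the 49 genes of interferon-inducible families in the mPFC 5 were called higher and 25 lower in D2, and of 48 in the vHPC 7 and 32. Of the listed motor and tubulin genes, 20 of 135 were higher and 29 lower in the mPFC and 40 of 130 and 46 in the vHPC. Ccl6 differed by 1.94 ± 0.15 and 2.82 ± 0.16. Siglecf, which reached 1 CPM in 0 B6 libraries of either region and passed through D2, was at -2.08 to -0.66 in B6 and 1.08 to 1.77 in D2 in the mPFC controls, and at -2.39 to -1.61 and 0.35 to 1.07 in the vHPC controls.

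The copies of the members were also measured there. Of the 35 copies at 10 CPM or more, 21 were called lower in D2 in the mPFC and 2 higher, beside 14.4% and 13.4% of all genes, with a median log2 difference of -0.29. In the vHPC 24 were called lower and 7 higher, beside 29.1% and 30.2% of all genes, with a median of -0.52. Hspa8 had a difference of -2.04 ± 0.07 in the mPFC (adjusted p = 6.16e-20) and Gm15459 one of 2.43 ± 0.08. Hmga1 was at -0.97 ± 0.13 and -2.04 ± 0.13 in the mPFC and vHPC, and Hmga1b at 0.82 ± 0.09 and 2.1 ± 0.10. Rps18 was at -1.27 ± 0.09 and -2.42 ± 0.07, and Tpm3 at -0.88 ± 0.06 and -1.53 ± 0.05 beside 0.69 ± 0.07 and 1.5 ± 0.07 for Tpm3-rs7. The pairs of Hmga1 and Tpm3 thus had opposite signs of member and copy in both regions, as in the BNST means. Gapdh was lower in the mPFC (-0.81 ± 0.08) and higher in the vHPC (0.15 ± 0.06, adjusted p = 0.0251), beside 4.46 and 13.41 for Gm13394, which was in both tables through D2.

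**Figure D4:**
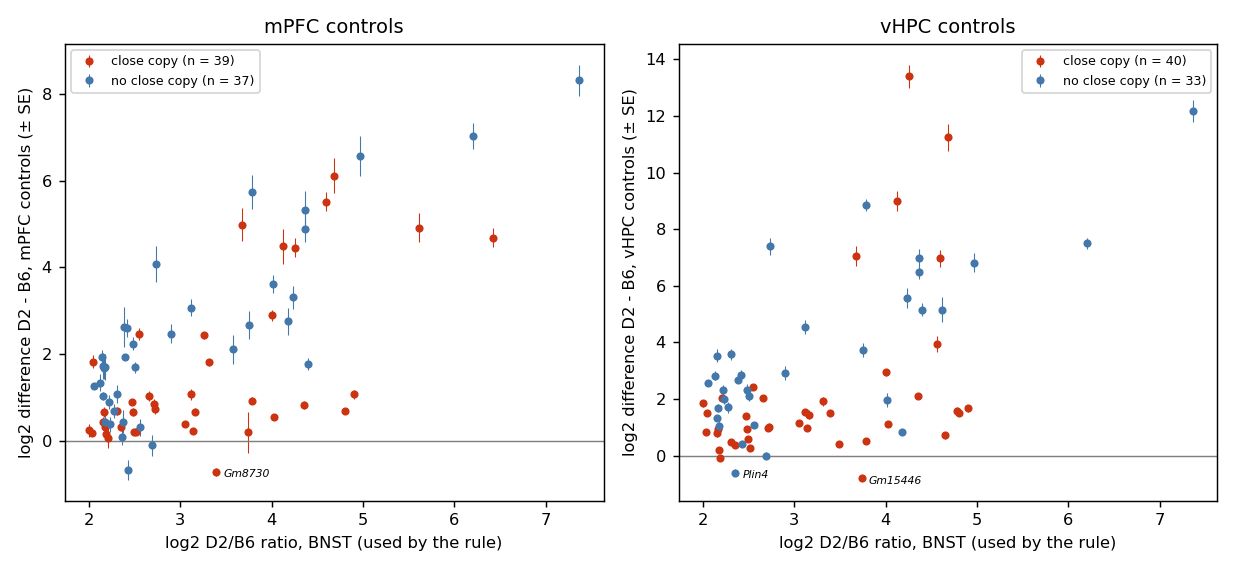
Log2 difference of D2 minus B6 controls in the mPFC and vHPC (vertical) against the log2 ratio of the BNST means that chose the members (horizontal), 1 point per member with its SE, coloured by whether a close copy exists. Most points lie above 0, and members called lower in D2 are named (Gm8730 in the mPFC, Plin4 and Gm15446 in the vHPC).

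A few members did not keep the strain difference of the BNST. Gm8730, a pseudogene of the ribosomal protein gene Rplp0, was lower in D2 controls in the mPFC by -0.71 ± 0.09 (adjusted p = 4.13e-07) and higher in the vHPC by 1.52 ± 0.09. Mir1931 differed by -0.11 ± 0.25 and 0.00 ± 0.11 and was not called in either region. Plin4 differed by 0.09 ± 0.19 in the mPFC and by -0.60 ± 0.13 in the vHPC (adjusted p = 2.73e-04), a call lost with the library set as a covariate (-0.99, adjusted p = 0.245). Gm7666 differed by 0.15 ± 0.08 and -0.07 ± 0.10 and was not called. Scd4 was not called in the mPFC (0.38 ± 0.17, adjusted p = 0.0906) and was at 1.99 ± 0.15 in the vHPC, where it passed the filter through D2. Col5a2 was at 0.31 ± 0.19 in the mPFC, not called, and 1.08 ± 0.10 in the vHPC.

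Gm15446 stood out among these. In the BNST it was at 0.66 to 2.03 CPM in all B6 libraries and 9.75 to 28.1 CPM in D2. In the vHPC it was lower in D2 controls by -0.80 ± 0.06 (adjusted p = 6.96e-12). In the mPFC the B6 libraries fell into separate levels. The 9 libraries of mice whose ID begins with C1 or C2 were at log2 CPM of 5.02 to 5.88, and the 9 with C5 or C7 were at 1.32 to 2.81. All 17 vHPC libraries of B6 came from C1 and C2 mice, at 4.55 to 5.14, and the BNST libraries of B6 came from mice with other prefixes. The D2 libraries of the mPFC were at 4.51 to 5.59 across 4 prefixes. Gm15446 thus had the high level in B6 mice of some prefixes and the low level in others, and the meaning of the prefix is not given in the sources used here.

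The second question was whether members responded to defeat, each strain against its own controls. In the BNST none of the 98 members that passed the filter on low counts was called by edgeR's quasi-likelihood test in B6 resilient (0% of all genes called), B6 susceptible (0%), D2 resilient (0%) or D2 susceptible mice (0%), or in the test of the difference between the strains (0%). The members at an unadjusted p under 0.05 numbered 6, 3, 5, 5 and 9, or 6.12, 3.06, 5.1, 5.1 and 9.18% of the 98, beside 1.87, 6.37, 5.44, 6.03 and 11.4% of all 17515 genes. DESeq2 called 0 in the defeat comparisons and 2 in the difference between the strains. Of single members, Gm15494 was at a log2 change of 1.002 in B6 resilient, Gm18860 at -2.68 in B6 susceptible, Wnt9b at -5.32 in D2 resilient and Gm15459 at -0.80 in D2 susceptible mice, with the smallest unadjusted p of each comparison and adjusted p of 1, 0.559, 0.858 and 0.567. The Wnt9b value rests on D2 control 5. The B6 comparisons share controls, as do those of D2.

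In the mPFC no member was called in B6 resilient (0% of all genes) or D2 susceptible mice (0%) or in the difference between the strains (0%), and 6, 2 and 7 were at an unadjusted p under 0.05 by limma, or 7.89, 2.63 and 9.21% of the 76, beside 3.86, 3.87 and 9.32% of all 18946 genes. In B6 susceptible mice 2 of 76 were called, beside 2.22% of all genes. Siglecf, 1 of the 2, was at log2 CPM of -2.08 to -0.66 in B6 controls and -0.70 to -0.14 in susceptible mice, overlapping slightly, a change of 0.83 ± 0.21. No B6 library of the mPFC held it at 1 CPM. It was in the table through D2, so its adjusted p is not given. Gm15446 changed by -2.65 ± 0.47 (adjusted p = 0.00705), and here the mouse IDs move with the groups, since 5 of 6 controls and 0 of 6 susceptible mice had the prefixes C1 or C2. With the prefix in the model no member was called. The count was 1 without B6 controls 3, 4 or 5 or B6 susceptible 2, 5 or 6, it was 4 without B6 susceptible 4, and it was 5 without B6 control 6. The highest mean of the members over libraries was 0.86 and the lowest 0.60 in any B6 mPFC library, and 2.5 to 2.79 in D2, whatever the library set.

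In the vHPC the members moved together after defeat. In B6 resilient mice 57 of 73 were called higher and 1 lower, beside 4.94% and 5.9% of all 19559 genes. In B6 susceptible mice 59 were called higher and 3 lower (20.5% and 20.1%), and in D2 susceptible mice 34 and 1 (1.54% and 2.74%). The median log2 changes were 0.62, 0.76 and 0.43, beside 0.00, -0.01 and 0.00 over all genes. Of the 73 members, 24 did not reach 1 CPM in 6 or more B6 libraries and were in the table through D2. The defeat counts, medians and library means include them and were not split by this class, so part of the B6 change comes from genes at low B6 values. Per library, the mean log2 CPM of the members was 0.03 ± 0.08 in B6 controls (n = 6), 0.96 ± 0.09 in resilient (n = 8) and 1.29 ± 0.07 in susceptible B6 mice (n = 3), and 2.91 ± 0.17 in D2 controls (n = 6) and 3.58 ± 0.12 in D2 susceptible mice (n = 5). No library of 1 group reached the range of another. The mirrored genes went the other way, with means of 3.63, 2.04 and 1.31 in B6 controls, resilient and susceptible mice and -1.31 and -2.5 in D2 controls and susceptible mice, and 54, 54 and 43 of 61 were called lower.

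Of the 73 members, 49 had group means that rose in the order of B6 controls, resilient and susceptible mice, D2 controls and D2 susceptible mice, and 24 did not. Dnah6 had a mean log2 CPM of 3.84 in B6 resilient and 3.61 in B6 susceptible mice, and Atp6v0c-ps2 one of 4.69 in B6 susceptible mice and 4.53 in D2 controls. Stab2 had log2 CPM of -0.74 to -0.05 in B6 controls (median -0.36) and 1.66 to 2.48 in resilient mice (median 2.00). The B6 susceptible mice were at 3.05, 3.17 and 3.6, D2 controls at 6.58 to 7.51 (median 7.23), and D2 susceptible mice at 8.20, 8.32, 9.02, 9.21 and 9.5. None of the 5 groups overlapped another. Its changes were 2.42 ± 0.18 (adjusted p = 6.93e-10), 3.64 ± 0.23 (adjusted p = 2.69e-11) and 1.72 ± 0.20 (adjusted p = 4.78e-06). Gm13394, the Gapdh pseudogene, had -8.75 to -5.84 in B6 controls, -3.38 to -1.89 in resilient mice, and -1.05, -0.93 and -0.08 in susceptible mice. Its changes were 4.3 ± 0.38 and 6.30 ± 0.50 in B6 and 3.2 ± 0.43 in D2. Cfap54 changed by 0.81 ± 0.07, 1.26 ± 0.09 and 0.64 ± 0.07, Myo19 by 0.85 ± 0.07, 1.31 ± 0.09 and 0.69 ± 0.08, and Gm18733 by 2.83 ± 0.20, 4.24 ± 0.26 and 2.3 ± 0.22. Set beside them, the strain differences of the controls in the same table, which use the same control libraries, were 7.50 for Stab2, 13.41 for Gm13394, 2.66 for Cfap54, 2.57 for Myo19 and 8.86 for Gm18733. Gm13394 and Gm18733 did not reach 1 CPM in 6 or more B6 libraries and were in the table through D2. Of the 2 members not called between the strains in vHPC controls, Mir1931 changed by -0.05 ± 0.11, 0.00 ± 0.14 and -0.06 ± 0.12 and Gm7666 by 0.10 ± 0.10, -0.36 ± 0.13 and 0.00 ± 0.11. Gm7666 was called lower by limma in B6 susceptible mice (adjusted p = 0.0262), and Mir1931 was not called. Gm15446, lower in D2 there, fell by 0.24, 0.47 and 0.21 (adjusted p = 0.00375, 1.70e-05 and 0.0444).

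The difference between the strains in the response to defeat was tested too. In the vHPC 8 of 73 members were called, and the change was lower in D2 for all 8, beside 0.225% of all genes lower and 0.557% higher: Stab2, Gm18733, Cfap54, Myo19, Gm35021, Gm13394, Prss41 and Hmga1b. Every B6 library of the vHPC was under 1 CPM for Gm35021 (log2 CPM -3.62 to -0.15), Gm13394 (-8.75 to -0.08) and Prss41 (-6.99 to -2.10). These members were in the table through D2, and their B6 changes are between values under 1 CPM. Their smaller change in D2 sits on a higher D2 level, and the mirrored genes had 20 of 61 called, all of them higher. Without B6 susceptible 1 the number was 2, without D2 susceptible 5 it was 4, and without B6 susceptible 3 it was 5.

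How the vHPC libraries were made moves with these groups. The B6 control libraries were prepared in sets 5, 6 and 9, none of which held a defeated B6 mouse, and the values had been adjusted for library and sequencing sets by the authors before deposit. With the library set as a term in the model 4, 15 and 0 members were called in the 3 defeat comparisons, and 0 in the difference between the strains. Set 8 was the 1 set with B6 susceptible, D2 control and D2 susceptible libraries together, and the mean of the members in these single libraries was 1.36, 3.17 and 3.39. The deposited values of B6 controls went down to log2 CPM of -8.75 among members (0.00232 CPM), and 6 members were under 0.01 CPM in some B6 control library and none in any other group. Among the mirrored genes 12 were under that level in D2 susceptible libraries and none in the other groups. The part of library set and of its adjustment in the vHPC changes was not tested beyond these values, and defeat and library set cannot be told apart in B6. In the mPFC each of sets 1 to 4 held every group. The mean of the members there was 0.68, 0.74 and 0.76 in B6 controls, resilient and susceptible mice. In D2 it was 2.65 in controls and 2.69 in susceptible mice. The mPFC is another region with libraries from another kit, so nothing about the vHPC is drawn from these values.

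**Figure D5:**
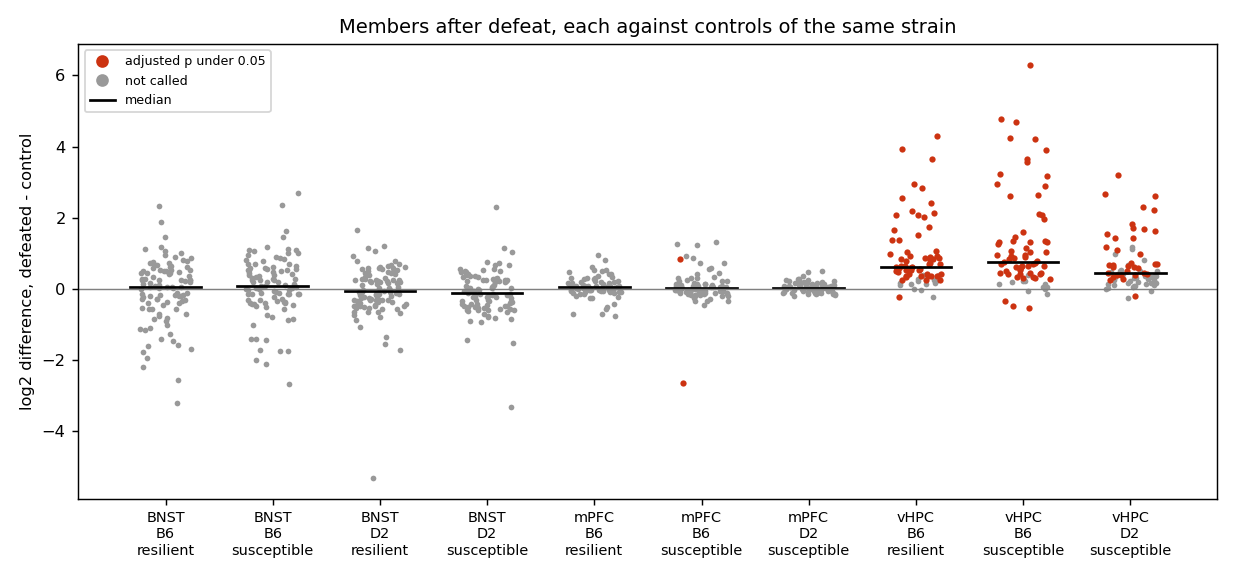
Log2 difference of defeated minus control mice of the same strain for each member, by region and comparison, with members called at an adjusted p under 0.05 in red and the median as a bar. The called members lie almost wholly in the vHPC, where the medians are 0.62, 0.76 and 0.43, and comparisons of a strain and region share their controls.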

How the data were processed

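The deposited BNST values were whole read counts per gene. The authors had removed adapters and PCR duplicates, used STAR for alignment to GRCm38 and HTSeq for counting over gene exons, whose strand setting is not given in the sources used here. BNST libraries were single-end and depleted of ribosomal RNA during preparation, mPFC and vHPC libraries were made with other kits after ribosomal RNA removal. The mPFC and vHPC values were deposited by the authors as log2 CPM after a filter on low values, voom and ComBat adjustment for library sets (and sequencing sets in the vHPC), and their depth is not in the files used here. Groups came from the sample labels. Replicates are mice, and nothing says whether libraries of different mice shared other steps.

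CPM were computed from the BNST counts. Defeat was tested with edgeR 4.0.16 (quasi-likelihood, TMM) on counts over 17515 genes and with limma 3.58.1 (robust empirical Bayes) on log2 CPM over all genes of a table, all groups of a region in 1 fit, with Benjamini-Hochberg adjustment over all genes and calls at an adjusted p under 0.05. DESeq2 1.42.0 was an alternative. Close copies were found with blastn 2.17.0 among GENCODE M21 transcripts, and promoters and the microRNA are from RefSeq. Tests were tried on simulated data first. The members and all lists were chosen with earlier results of these data known. Members named are those with the highest BNST levels or ratios, leaders of location clusters, leading members of each defeat comparison, those at the thresholds, those lower in D2 in another region and those of the function lists. Rprl2, Rpph1, Rprl1, Gm9347, Ccl6, Fpr2, Fmo2, Prss41, Prss32, Serpina1b, Atp2a1, Tspan11, Pgr15l, Gm18734, Arhgap27os3, AI847159, Gm14029, Xist, Cdk17, Cfap77 and the parent genes of pseudogenes were chosen after their values or positions were seen. Of the members, 1 is counted in all totals and otherwise not reported here. Columns of other samples numbered 0.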

Additional observations from a re-analysis of the deposited data

Results flagged for a closer look

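Outlying libraries were looked for in 59 groups of 5 to 8 libraries, with 9 of the 10 members of highest BNST level in each BNST group and the mean of the members in each group of all regions. In 5 of them a value lay far from the rest of its group, where chance alone flags about 1 in 20, and all 5 were single members in B6 groups of the BNST. Stab2 was at 2.664 CPM in B6 control 1, with the nearest library at 1.487. Cfap54 was at 26.36 CPM in B6 resilient 5 (nearest 18.38). Dnah6 was at 7.668 CPM in B6 control 1 (nearest 1.692), 18.38 CPM in B6 resilient 5 (nearest 2.21) and 6.596 CPM in B6 susceptible 2 (nearest 1.745). B6 resilient 5 was thus the far library for Cfap54 and Dnah6.

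In the vHPC the change of susceptible mice against controls differed between the strains for 8 members by limma's test of the difference, each smaller in D2 than in B6. The log2 differences were -1.925 for Stab2 (adjusted p = 0.00328), -1.942 for Gm18733 (adjusted p = 0.00468), -0.622 for Cfap54 (adjusted p = 0.00739), -0.622 for Myo19 (adjusted p = 0.012) and -0.708 for Hmga1b (adjusted p = 0.0433). They were -1.840 for Gm35021, -3.098 for Gm13394 and -2.207 for Prss41, which were under 1 CPM in every B6 library of the vHPC. Because these were in the table through D2, their adjusted p is not given. With the library set in the model none of the 8 members was called.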

How the results depend on the processing

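The rule found 47 genes with 0.5 added to both means, 46 with a ratio of 8 and 32 with a D2 mean of at least 5 CPM, all of them among the 101, and 96 to 109 with a library left out. With genes limited to a mean log2 CPM of at least 1, which tests fewer genes, the members called higher in D2 were 39 in mPFC controls, 39 in mPFC susceptible mice, 41 in vHPC controls and 39 in vHPC susceptible mice, and the members called after defeat were 1 in mPFC B6 susceptible mice and 32, 35 and 18 in vHPC B6 resilient, B6 susceptible and D2 susceptible mice, with 4 in the vHPC difference between the strains. With the library set as a covariate these defeat counts were 1 in the mPFC, 4, 15 and 0 in the vHPC and 0 in the difference between the strains. In mPFC B6 susceptible mice the count was 4 after quantile normalization, 0 with the prefix of the mouse IDs in the model, 0 with only the groups compared and 1 to 5 with a library left out. The vHPC difference between the strains gave 17 members with only the groups compared, and 2 to 11 with a library left out. In the BNST that difference gave 2 members with DESeq2, 2 with no TMM factors and 0 to 1 with a library left out, the 1 arising without B6 control 4. With a library left out the other counts were 63 to 65 and 65 to 68 (mPFC strain, controls and susceptible), 68 to 69 and 64 to 66 (vHPC strain), and 55 to 58, 50 to 61 and 27 to 35 (vHPC defeat). The cause of these shifts was not tested.

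Of the named members' alternatives 651 kept direction and side of the threshold, 4 lost the call and 2 changed sign. Plin4 in mPFC controls was between -0.0071 (without B6 control 1) and 0.26 with a library left out, and Gm15446 between -0.28 (without B6 control 6) and 0.38, neither called. In vHPC controls with the library set as a covariate, limma gave adjusted p of 0.245 for Plin4, 0.0643 for Slfn8, 0.128 for Dnah6 and 0.384 for Atp6v0c-ps2. The mouse ID prefix could not be estimated beside the strain and was not run there. No paired analysis was possible because replicate numbers follow accession order only and within a region no mouse is in more than 1 group.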
